A study of Mus musculus with 5 samples.

Results

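Probes 2org-222 and 2org-221 are the 2 probes, of 171 for microRNAs and 178 in all, whose ID numbers are those of miR-222 and miR-221. They were taken by these IDs and not by a cut on their values, but with earlier results of these data known. The platform annotation in GEO gave 1 gene for 61 probes and named 0 of these 2, so the microRNA of each probe is read from the number in its ID. Total RNA of mouse T cells was compared on 5 arrays of 2 channels each. The activated cells were CD4-positive, CD25-negative T cells activated overnight (1 array), for 3 days (2 arrays) or for 10 days (2 arrays). Each array set them against the same kind of T cell without activation, called naive here after the title of the series. The 2 arrays of day 3, and those of day 10, had opposite dyes.

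How the cells were activated and grown, the mouse strain and the number of animals were not stated in the labels. Nor is it said there whether a dye pair came from separate extracts or whether one naive RNA served all 5 arrays, so the times may share their control. In such bulk RNA, fewer cells of a type and less RNA per cell cannot be told apart. The values are ratios on each array and not levels, so neither the type nor the purity of the cells could be checked against the presence or absence of marker microRNAs. They were read as log2 ratios of Cy5 over Cy3, which is likely rather than stated, and turned to activated over naive. If Cy3 was the numerator, every direction below turns.

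The genes of miR-221 and miR-222 lie side by side and are known to be transcribed together. Both microRNAs are known, mostly from human cell lines, to repress p27 (gene Cdkn1b) and p57 (Cdkn1c), Cip/Kip inhibitors of the cyclin-dependent kinases that drive the cell cycle, and the receptor kinase Kit. In resting T cells p27 is high, and it is lost as activated T cells begin to divide.

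The mature sequences are shown because the members share the part that pairs with targets. In RefSeq (build GRCm38.p6) both genes are on the minus strand of chromosome X, Mir221 at chrX:19146294-19146388 and Mir222 at chrX:19146893-19146971, with 504 bases between the hairpins. No other annotated gene overlapped either hairpin or the gap, and the next one at higher coordinates, the long noncoding RNA Gm14636, began 9499 bases further on. The 3-prime arms, 5′ to 3′, with the seed (bases 2 to 8) in capitals, are:
miR-222-3p: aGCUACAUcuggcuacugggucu
miR-221-3p: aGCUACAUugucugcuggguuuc

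The hairpins, with the same arms in capitals, are:
Mir222: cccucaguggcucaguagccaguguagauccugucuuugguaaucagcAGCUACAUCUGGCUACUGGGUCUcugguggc
Mir221: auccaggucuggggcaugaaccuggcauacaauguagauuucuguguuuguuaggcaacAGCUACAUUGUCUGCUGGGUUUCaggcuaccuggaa

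The 2 arms are 23 bases long and have the same first 8 bases, the seed GCUACAU included. Compared position by position 11 of 23 bases are the same. The longest further shared run has 6 bases and does not start at the same position in the 2 arms. Of 1738 mature mouse entries in the table, 3 carry this seed, the other being miR-1928 (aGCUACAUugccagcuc), for which 0 probes of the array carry the number. The probes' own sequences were not used here, and how far either probe also binds the other microRNA was not tested.

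Both probes were higher in activated than in naive cells on all 4 arrays of days 3 and 10, and lower on the overnight array. Probe 2org-222 had log2 ratios of -2.43 on the overnight array, 2.48 and 2.80 on the day 3 pair, and 2.68 and 2.69 on the day 10 pair, with the Cy5-activated array given first in each pair. Probe 2org-221 had -2.23 on the overnight array, 2.27 and 2.12 on the day 3 pair, and 2.48 and 2.52 on the day 10 pair. The overnight value of each probe was below all 4 later ones, as for 78.9% of all microRNA probes at day 3 and 74.3% at day 10 (32.2% and 29.8% after centring). The day 10 arrays of 2org-222 lay within the range of its day 3 arrays, and those of 2org-221 lay above its day 3 arrays.

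**Figure D1:**
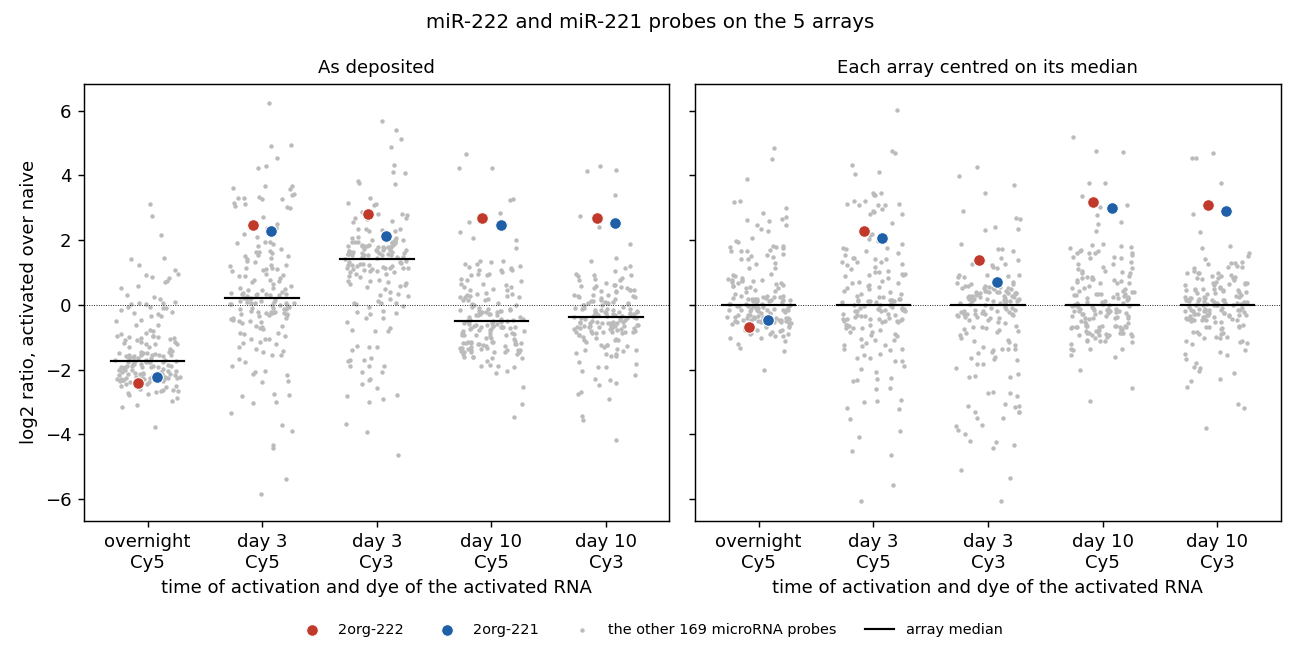
Log2 ratio of activated over naive cells (y axis) on the 5 arrays (x axis, with the dye of the activated RNA), as deposited on the left and with array medians set to 0 on the right. Red and blue points are 2org-222 and 2org-221, grey points the other microRNA probes and black lines the array medians; both probes lie at -2.43 and -2.23 overnight and between 2.12 and 2.80 on the later arrays as deposited.

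The arrays as deposited did not share a median: the median microRNA probe lay at -1.75 overnight, at 0.20 and 1.42 on the day 3 arrays, and at -0.51 and -0.38 on those of day 10. Once every array's median was set to 0 (centring), 2org-222 stood at -0.68 on the overnight array, 2.28 and 1.38 on the day 3 pair, and 3.19 and 3.07 on the day 10 pair. Centred values of 2org-221 were -0.49 overnight, 2.07 and 0.70 on the day 3 pair, and 2.99 and 2.90 on the day 10 pair. Centring thus turned no sign, and it placed all day 10 values of either probe above its day 3 values. The place among the 171 probes of an array does not move with centring. Overnight 20 probes lay below 2org-222 and 41 below 2org-221. On the day 3 arrays 24 and 17 probes lay above 2org-222 and 27 and 31 above 2org-221, and on the day 10 arrays 6 and 5 above 2org-222 and 9 and 6 above 2org-221.

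At day 3 the mean of 2org-222 was 2.64 ± 0.16, 6.22-fold over naive cells, and that of 2org-221 was 2.19 ± 0.07, or 4.57-fold. The ± is the distance of either array from the mean of the pair (n = 2 arrays), which holds the dye effect that the mean cancels and is not a standard error. Both probes met the rule for higher, a mean of at least 1 (2-fold) and no change of sign between the arrays, as did 38% of all microRNA probes. After centring the means were 1.83 and 1.38 for 2org-222 and 2org-221, and both still met the rule, with 15.2% of all probes, while 19.9% were lower. In a limma fit over the 5 arrays with a term for each time and for dye, both were higher at day 3, at adjusted p = 1.32e-07 for 2org-222 and 1.05e-05 for 2org-221, where 39.2% of probes were called higher. After centring the adjusted p in this limma fit were 1.83e-05 and 0.00133, with 18.1% called higher and 21.1% lower. This fit leaves 1 residual degree of freedom per probe, the difference between the dye effects of the day 3 and day 10 pairs. Limma's moderation pooled it over all probes and gave every probe the same error, with 171 degrees of freedom. The p-values rest on this alone, which may be technical, so they may not measure the spread between samples.

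At day 10 the mean of 2org-222 was 2.68 ± 0.01 (6.42-fold) and that of 2org-221 was 2.50 ± 0.02 (5.64-fold), the fifth and the seventh highest of 171 probes. Both met the rule for higher, and 9.94% of all probes did. After centring the means were 3.13 and 2.94 for 2org-222 and 2org-221, and both met it with 14.6% of all probes. The limma fit over 5 arrays gave adjusted p = 3.41e-07 for 2org-222 and 2.02e-06 for 2org-221, with 7.02% of probes called higher. The same fit after centring gave adjusted p = 2.68e-12 and 2.87e-11, with 14% called higher. The members were thus among a smaller share of probes at day 10 than at day 3 as deposited, at nearly the same ratios.

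The 2 arrays of a pair differed little for these probes. The part of the ratio that does not turn with the dyes, 0.5 times the Cy5-activated minus the turned Cy3-activated array, was -0.16 for 2org-222 and 0.07 for 2org-221 at day 3. At day 10 it was -0.01 and -0.02. Over all microRNA probes its median size was 0.55 at day 3 and 0.20 at day 10, and it reached 3.31 and 3.72. At day 3, 24 of 171 probes had a smaller one than 2org-222 and 12 a smaller one than 2org-221, and at day 10 the numbers were 3 and 8. After centring, which takes different amounts off the 2 day 3 arrays, it was 0.45 for 2org-222 and 0.68 for 2org-221 at day 3, against a median size of 0.37.

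Overnight the ratios of -2.43 and -2.23 made 2org-222 and 2org-221 at least 2-fold lower, as were 73.1% of all microRNA probes on this array. After centring neither was 2-fold from 0, and 4.09% of probes were lower. In the limma fit over 5 arrays, which takes off the dye effect measured at days 3 and 10, the overnight values were -2.35 for 2org-222 (adjusted p = 0.00929) and -2.26 for 2org-221 (adjusted p = 0.0115), with 38.6% of probes called lower and 1.75% higher. After centring they were -0.94 (adjusted p = 0.460) and -0.85 (adjusted p = 0.495), with 1.17% called lower. With 1 array and no dye swap at this time, limma takes its spread to be that of the dye pairs of days 3 and 10, which may be technical, so these overnight p-values are given as values and no call is drawn from them.

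Both probes were above their overnight values at the later times, before and after centring. Between arrays whose activated RNA was in Cy5, 2org-222 at day 3 was above its overnight value by 4.91 on the log2 scale, and by 2.96 after centring. For 2org-221 the difference was 4.50, and 2.55 after centring. These were the ninth and the fourteenth largest of 171 such differences. As deposited 73.7% of probes stood 2-fold or more higher at day 3 than overnight on these arrays, and after centring 23.4%. Day 10 minus overnight on the Cy5 arrays was 5.11 for 2org-222 and 4.71 for 2org-221, the fifth and the seventh largest, and 3.87 and 3.47 after centring. Of all probes 55.6% stood 2-fold or more higher and 4.68% lower in this difference, and 16.4% and 21.1% after centring.

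In the limma fit over 5 arrays day 3 minus overnight was 4.98 ± 0.84 for 2org-222 (pooled SE, adjusted p = 2.29e-07) and 4.45 ± 0.84 for 2org-221 (adjusted p = 3.81e-06), with 65.5% of probes called higher and 2.92% lower. After centring limma gave 2.76 ± 0.72 (adjusted p = 0.000859) and 2.23 ± 0.72 (adjusted p = 0.00967), with 12.3% called higher. With the arrays also brought to equal scale, the limma value for day 3 minus overnight was 1.99 for 2org-222 (adjusted p = 0.0484) and 1.48 for 2org-221, which no longer passed (adjusted p = 0.171). Day 10 minus overnight was 5.03 ± 0.84 for 2org-222 (limma, adjusted p = 3.82e-07) and 4.75 ± 0.84 for 2org-221 (adjusted p = 1.41e-06), with 13.5% called higher. After centring limma gave 4.07 ± 0.72 (adjusted p = 1.82e-06) and 3.79 ± 0.72 (adjusted p = 9.80e-06), with 6.43% called higher. Each of these has the single overnight array as one arm, taken to vary like the later dye pairs, so the p-values do not measure the spread between overnight samples.

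Between days 10 and 3 the deposited ratios moved little, while the median probe was lower at day 10. Day 10 minus day 3 was 0.05 for 2org-222 (2.68 against 2.64) and 0.31 for 2org-221 (2.50 against 2.19), beside a median of -1.22 over all microRNA probes. Neither met the rule of a 2-fold difference without overlap, by which 12.9% of probes were higher and 41.5% lower. The limma fit over 5 arrays gave no call, with 95% intervals of -1.20 to 1.30 for 2org-222 (adjusted p = 0.954) and -0.94 to 1.56 for 2org-221 (adjusted p = 0.709), while 8.77% of probes were called higher and 43.9% lower. A 2-fold difference in either direction lies within the first interval and a 2-fold rise within the second.

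After centring, which takes off -1.26 from this difference, day 10 was above day 3 by 1.30 for 2org-222 and by 1.56 for 2org-221. Both then met the size rule for higher without overlap, with 28.1% of all probes. In the limma fit after centring 2org-221 was higher at day 10 (adjusted p = 0.0177) and 2org-222 did not pass (adjusted p = 0.0568), with 21.6% of probes called higher. With the arrays also brought to equal scale both passed in limma, at 2.14 for 2org-222 (adjusted p = 0.00205) and 2.33 for 2org-221 (adjusted p = 0.000728). In rank 2org-222 was the fifth highest at day 10 and the eighteenth at day 3, and 2org-221 the seventh and the twenty-sixth. The files do not tell whether the ratios of these probes were steady while others fell, or rose while others were steady.

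**Figure D2:**
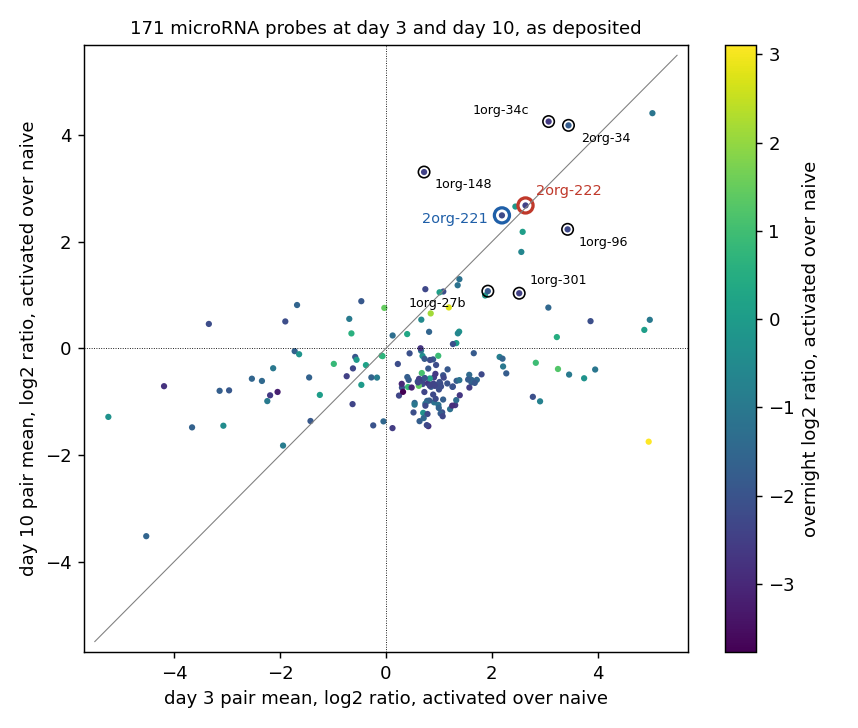
Pair means of the log2 ratio of activated over naive cells at day 3 (x axis) and day 10 (y axis) for the 171 microRNA probes as deposited, coloured by the overnight ratio, with a grey line where the days are equal. Rings mark 2org-222 (red), 2org-221 (blue) and the probes nearest to either in profile (black); the members lie close to the line at 2.64 and 2.68 and at 2.19 and 2.50, above most probes of day 10.

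Taken over the 3 times as 3 replicates, neither probe passed limma's test against 0. The mean was 0.96 for 2org-222 and 0.82 for 2org-221, with a pooled SE of 0.93 and adjusted p = 0.852 for both. Of all 171 probes 0% were called in this limma test, as deposited and after centring, and at an unadjusted threshold of 0.05 it had 3 higher and 8 lower, or 10 and 1 after centring. Without the overnight array the means were 2.66 and 2.34 for 2org-222 and 2org-221 (limma, adjusted p = 0.121 and 0.177).

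The members moved together. Probe 2org-222 minus 2org-221, a difference that does not move with centring, was -0.20 on the overnight array, 0.21 and 0.68 on the day 3 pair and 0.20 and 0.17 on the day 10 pair. Thus 2org-222 was the higher of the pair on all 4 later arrays and the lower one overnight, and the largest difference was on the day 3 array whose activated RNA was in Cy3 (2.80 for 2org-222 and 2.12 for 2org-221). These are differences between ratios and say nothing of which microRNA was more abundant. The distance between the 2 probes over the 3 time means, the root of the summed squared differences, was 0.52 against a median of 2.64 over all 14535 pairs of microRNA probes. Of all pairs 3.74% were closer. Over the 5 single arrays the distance was 0.78 and 1.03% of pairs were closer, and over days 3 and 10 alone it was 0.48 with 9.61% closer.

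Other probes numbered as neighbouring microRNA genes were for the most part less alike. Among 26 such pairs the members were the second closest over the 3 times, after 1org-200a and 1org-200b (0.43) and before 1org-143 and 1org-145 (0.64). The median distance of the other 25 pairs was 1.49. The most distant pairs were 2org-199a and 2org-214 (7.72), 1org-99a and 1org-7c (4.96) and 1org-182 and 1org-183 (3.78). Over days 3 and 10 alone the members were the fifth closest, behind 2org-200c and 1org-141 (0.08), 1org-132 and 2org-212 (0.27), 1org-143 and 1org-145 (0.31) and 1org-200a and 1org-200b (0.37). Some pairs share sequence as well as position, so this is a description, as is the distance of pairs whose ratios stay near their array medians.

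**Figure D3:**
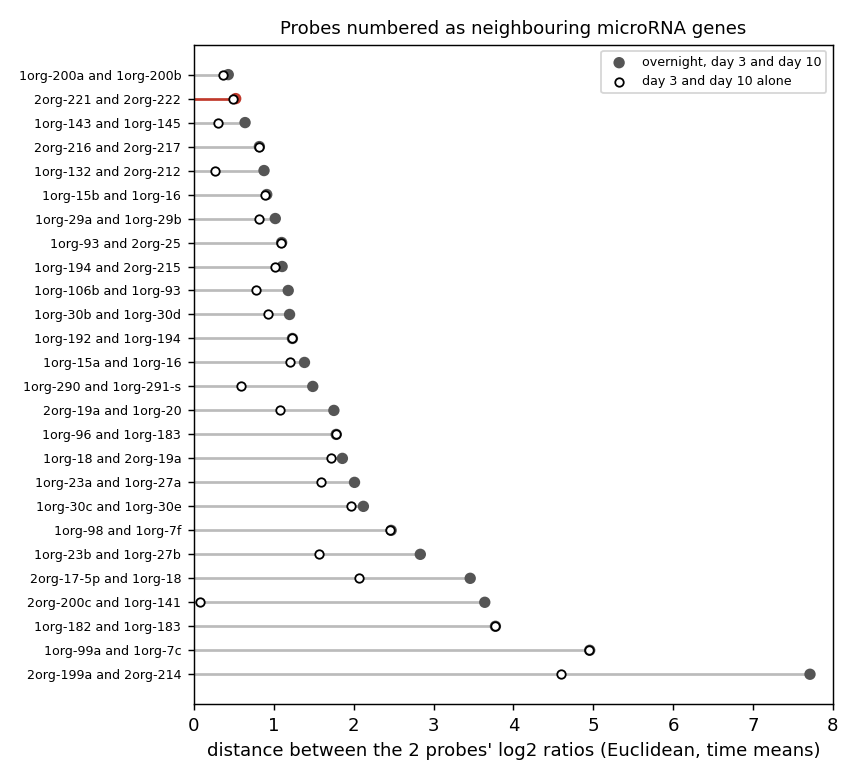
Distance between the log2 ratios of 2 probes (x axis, Euclidean over time means) for 26 pairs numbered as neighbouring microRNA genes (y axis). Filled points use overnight, day 3 and day 10, open points days 3 and 10 alone; the red line is 2org-221 and 2org-222, at 0.52 over the 3 times, beside a median of 1.49 in the other pairs.

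The nearest profile to each member was that of the other. The next nearest to both was miR-96 (1org-96), at a distance of 0.93 from 2org-222 and 1.27 from 2org-221. MiR-96 is a microRNA of the miR-183 cluster. Its log2 ratios were -2.25 overnight, 3.14 and 3.72 on the day 3 arrays, and 2.06 and 2.41 on those of day 10. It was above both members at day 3 and below them at day 10. The other probes among the 5 nearest to 2org-222 were miR-34a (annotated for 1org-34c, distance 1.64), miR-301 (1org-301, 1.65) and 2org-34 (1.83). For 2org-221 they were 1org-27b (1.498), miR-301 (1.51) and 1org-148 (1.69). These distances are over 3 time means that may share a control, and with the overnight array left out miR-21 (1org-21) came closest to both members, at 0.19 from 2org-222 and 0.30 from 2org-221. MiR-21 stood at -0.09 overnight, 2.45 at day 3 and 2.66 at day 10, so it lay apart from the members on the overnight array.

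Of these, miR-96, miR-301a, miR-27b and miR-34a do not share the members' seed. Their mature sequences from RefSeq, again with bases 2 to 8 in capitals, are:
miR-96-5p: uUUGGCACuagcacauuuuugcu
miR-301a-3p: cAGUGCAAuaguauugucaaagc
miR-27b-3p: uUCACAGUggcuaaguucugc
miR-34a-5p: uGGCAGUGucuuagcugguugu

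The list of 10 other probes for microRNAs known to repress Cip/Kip inhibitors held 2org-17-5p, 1org-20, 1org-93, 2org-106, 1org-106a and 1org-106b (known for p21), 1org-24, 1org-181 and 1org-196 (p27) and 2org-25 (p57). At day 3, 3 of the 10 were at least 2-fold higher and 2 lower, with a median of -0.05, beside 0.83 over all microRNA probes. The same rule called 38% of all probes higher and 12.9% lower. At day 10, 0 were higher and 1 lower around a median of 0.22, beside -0.56, and 2 were higher without the Cy3-activated day 10 array. The highest of these 10 ratios was 0.99, below both members, as were the means of 164 of all 171 probes for 2org-221 and of 166 for 2org-222. Of all probes 9.94% were higher and 17% lower at day 10 as deposited. Centring left 1 of the 10 higher and 4 lower at day 3, where 15.2% and 19.9% of all probes were. At day 10 centring gave 5 and 1, where 14.6% and 4.09% of all probes were higher and lower. Overnight, where the members were among the lower probes, 3 of the 10 were higher and 2 lower, beside 4.09% and 73.1% of all probes. Their overnight median was -0.08 beside -1.75. After centring 7 were higher and none lower overnight, where 21.6% and 4.09% of all probes were.

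Within this list the probes known for p27 went different ways. Probe 1org-181 was lower at both days, at -4.53 ± 0.84 at day 3 and -3.52 ± 0.05 at day 10. Probe 1org-24 was at 1.87 ± 0.43 at day 3 and 0.99 ± 0.08 at day 10. After centring it was at 1.06 and 1.44 and met the rule for higher at both days, against day 3 alone as deposited. Probe 1org-196 was at 2.21 ± 1.06 at day 3, close to 2org-221, but its 2 arrays lay far apart. At day 10 it was at -0.34. After centring it was at 1.40 at day 3, where it no longer met the rule for higher, and at 0.11 at day 10. Of the probes known for p21, 2org-106 was the one farthest from 0 at day 10, at 0.77 ± 0.18.

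The list of 25 probes for microRNAs known to restrain the cell cycle (let-7 and the families of miR-15, miR-26, miR-29, miR-34 and others) was mostly lower or near 0 at day 3. At day 3 the median was -0.62, beside 0.83 over all probes. Of the 25, 5 were at least 2-fold higher and 11 lower at day 3 (2 and 15 after centring). Of all probes 38% were higher and 12.9% lower (15.2% and 19.9% after centring). At day 10 the median was -0.16, beside -0.56 over all probes, with 2 higher and 4 lower (4 and 2 after centring). Of all probes 9.94% were higher and 17% lower at day 10 (14.6% and 4.09% after centring). Overnight the median was -1.63, beside -1.75 over all probes, and none was higher and 20 lower, where 73.1% of all probes were lower. After centring 5 were higher and 1 lower overnight, where 21.6% of all probes were higher and 4.09% lower. The probes farthest from 0 at day 3 were 1org-26a (-4.19 ± 0.25), 1org-7c (-3.66 ± 0.67) and 2org-34 (3.45 ± 0.15). At day 10 they were miR-34a (1org-34c, 4.26 ± 0.05), 2org-34 (4.19 ± 0.04) and 1org-7c (-1.48 ± 0.03). The probe annotated as miR-34a and 2org-34 were the 2 of the 25 above the members at day 10. Between days 10 and 3, 12 of the 25 were at least 2-fold higher without overlap and 5 lower (18 and 1 after centring), and of the 10 probes 3 were higher and 1 lower (7 and none after centring). Over all microRNA probes 12.9% were higher and 41.5% lower in this difference, and 28.1% and 13.5% after centring.

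**Figure D4:**
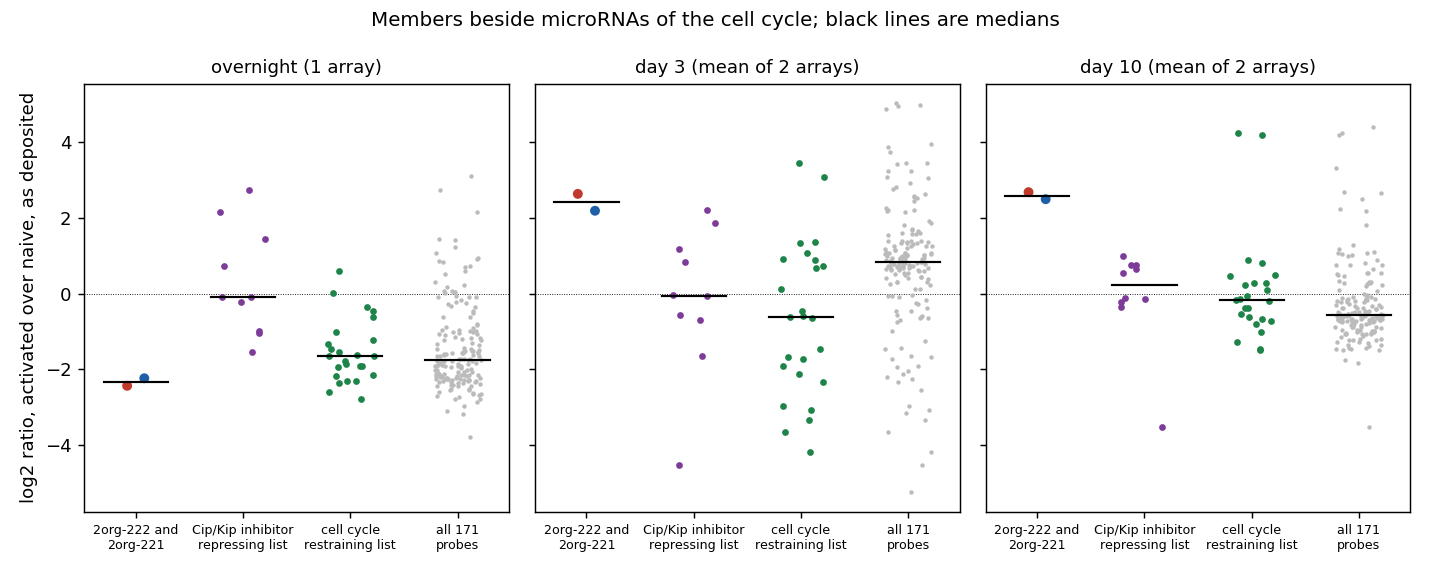
Log2 ratio of activated over naive cells as deposited (y axis) overnight, at day 3 and at day 10, for 2org-222 and 2org-221 (red and blue), 10 probes of microRNAs known to repress Cip/Kip inhibitors, 25 of microRNAs known to restrain the cell cycle, and all 171 microRNA probes; black lines are medians. At day 10 both members lie at 2.50 or more while the 2 lists have medians of 0.22 and -0.16.

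Of the 5 lymphocyte probes 1 was higher and 4 lower in activated cells at day 3, and 0 were higher and 3 lower at day 10. Of all probes 12.9% were lower at day 3 and 17% at day 10. After centring the lymphocyte counts were 1 and 4 at day 3 and 0 and 1 at day 10. All probes then had 19.9% lower at day 3 and 4.09% at day 10. Overnight 0 of the 5 lymphocyte probes were higher and 3 lower, beside 4.09% and 73.1% of all probes. After centring 2 were higher and 0 lower overnight, beside 21.6% and 4.09% of all probes. MiR-155 (1org-155), which antigen receptor signals induce, was at 0.05 overnight, 4.88 at day 3 and 0.35 at day 10, and 1org-150, numbered as miR-150 of resting lymphocytes, at -0.28, -5.24 and -1.28. The probes for the arms of miR-142, which blood cells share, were below 0 at each time, before and after centring. Probe 1org-142-s was at -1.89, -1.43 and -1.36 (overnight, day 3 and day 10), and after centring at -0.14, -2.24 and -0.91. Probe 1org-142-as was at -2.65, -2.19 and -0.88, and after centring at -0.90, -3.00 and -0.43. Of markers of other cells that also express miR-221 and miR-222, the endothelial probes 1org-126 and 1org-126* had a median of 0.39 at day 3 and -0.95 at day 10, with none of 2 higher. Probe 2org-223, a myeloid marker, stood at -0.24 and -1.44, and 1org-144, for miR-144 of red cell precursors, at 1.03 and -0.66. At day 3 1org-144 thus met the rule for higher, which it did not after centring (0.215). Of the stromal and muscle probes 3 of 6 were higher at day 3 and none at day 10. The highest of the 6 at day 3 was 2org-214, above both members, beside a median of 0.96 for the 6. It was at 3.11 overnight, 4.96 at day 3 and -1.75 at day 10, and at 4.86, 4.15 and -1.30 after centring. Of the epithelial and liver probes none of 7 was higher at either time. Of the neural probes 1 of 4 was higher at day 3 and none at day 10. Over all probes 38% were higher at day 3 and 9.94% at day 10. After centring 1 of the 6 stromal and muscle probes was higher at day 3 and none at day 10. No epithelial and liver or neural probe was then higher at either time, beside 15.2% and 14.6% of all probes. Overnight 1 of 6 stromal and muscle probes and 2 of 7 epithelial and liver probes were higher, where 4.09% of all probes were. None of the endothelial, myeloid, erythroid and neural probes was, before or after centring. After centring 2 of 6 stromal and muscle and 3 of 7 epithelial and liver probes were higher overnight, beside 21.6% of all probes. The part of other cell types in the members' ratios was not tested.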

How the data were processed

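The deposited table holds 1 log ratio per probe on each of 5 arrays, with no missing value. The values were read as log2 ratios from their size and sign, and no step before the deposited log2 values is given in the sources used here: log base, numerator, background correction and centring are not stated. As deposited, the day 3 arrays had r = -0.66 with each other over microRNA probes and the day 10 arrays r = -0.43, so the table runs in 1 dye direction. The overnight array correlated with the day 3 and day 10 arrays of its dye at r = 0.27 and r = 0.31. Ratios of the arrays with activated RNA in channel 1 were multiplied by -1. Precision is limited by the number of arrays. Nothing in the table tells a probe above background from one below it.

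From these values, pair means, ranks, distances and counts were computed in Python 3.11.15 (pandas 2.3.3), over 171 microRNA probes and leaving out 7 probes for other small RNAs. Limma 3.58.1 in R 4.3.3 (lmFit, eBayes, 2-sided, Benjamini-Hochberg over 171 probes, threshold 0.05) was fitted to 1 value per time and, as the alternative, to the 5 arrays with time and dye terms. The fit over 5 arrays gives the p-values of single times and of differences between times. Both fits were run on simulated data with the same shift at each time and no array offset. The real arrays have such offsets, so the simulation does not test the calls made here. Alternatives were centring on the median of microRNA or of all probes, equal scale, and leaving out arrays. Differences from overnight were added after the data were seen. Named were the members, the 5 probes nearest to each, the 3 probes of each cell cycle list farthest from 0 at days 3 and 10, the 3 closest and 3 most distant neighbouring pairs, and miR-155 and miR-150; the nearest pairs and probe without the overnight array and the single marker probes were named after their values were seen. Of 36 neighbouring pairs listed, 10 were left out, 1 of them (34b and 34c) because the annotation and the ID disagree and the others because a probe was lacking. The members and lists were chosen with earlier results of these data known. Sequences are from RefSeq (GRCm38.p6).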

Additional observations from a re-analysis of the deposited data

Results flagged for a closer look

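Both probes had the opposite sign overnight and on every array of days 3 and 10 as deposited. Overnight 73.1% of all microRNA probes were at least 2-fold lower, and how many of these also turned sign later was not counted. After centring the overnight values were -0.68 for 2org-222 and -0.49 for 2org-221, neither 2-fold from 0. On the arrays with activated RNA in Cy5, 2org-222 at day 3 was 4.91 above overnight and 2org-221 was 4.50 above it. At day 10 they were 5.11 and 4.71 above overnight. Of all probes 73.7% stood 2-fold or more above overnight at day 3 and 55.6% at day 10 on these arrays (23.4% and 16.4% after centring). In the limma fit over 5 arrays the adjusted p lay between 2.29e-07 and 3.81e-06 (between 1.82e-06 and 0.00967 after centring, and 0.171 for 2org-221 at day 3 at equal scale). The overnight time is 1 array without a dye swap, so these p-values borrow the spread of the later pairs. Its median of -1.75 lay below that of every other array; the part of this offset in the deposited differences is what centring takes off, 1.95 at day 3 and 1.23 at day 10.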

How the results depend on the processing

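Under the alternatives 1 value of the 2 probes turned its sign: day 10 minus day 3 of 2org-222, at -0.11 without the Cy5-activated day 3 array. Values below give 2org-222 first and 2org-221 second. Centring on microRNA probes, on all probes, and centring with equal scale gave -0.68, -0.70 and -0.85 against -0.49, -0.50 and -0.60 overnight, 1.83, 1.91 and 1.42 against 1.38, 1.47 and 1.02 at day 3, and 3.13, 3.14 and 3.56 against 2.94, 2.95 and 3.35 at day 10. For day 10 minus day 3 these settings gave 1.30, 1.22 and 2.14 against 1.56, 1.48 and 2.33, for day 3 minus overnight on Cy5 arrays 2.96, 3.03 and 2.35 against 2.55, 2.62 and 1.96, and for day 10 minus overnight 3.87, 3.88 and 3.76 against 3.47, 3.48 and 3.33. The dye term moved the overnight values to -2.35 and -2.26 (-0.94 and -0.85 centred), the day 3 difference from overnight to 2.76 and 2.23 after centring, and the day 10 one to 5.03 and 4.75 (4.07 and 3.79 centred). Over the 3 times, the fit over 5 arrays passed where the fit on 1 value per time did not. It gave 0.99 and 0.81 (adjusted p = 0.00858 and 0.0354 in limma), and 1.34 and 1.16 after centring. Its error comes from the difference between the dye effects of the 2 pairs and not from the spread between times. Probe 2org-222 minus 2org-221 was -0.25 overnight and 0.21 at day 10 at equal scale.

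Leaving out 1 array gave, for 2org-222, 2.48 to 2.80 at day 3, 2.68 to 2.69 at day 10, -0.11 to 0.21 for day 10 minus day 3 and 0.91 to 2.66 for the mean of the 3 times, the highest without the overnight array. For 2org-221 the ranges were 2.12 to 2.27, 2.48 to 2.52, 0.23 to 0.38 and 0.79 to 2.34. Of 80 list counts under an alternative, 35 were within 1.5 times of the count as deposited and 45 were not, mostly by centring or by keeping annotated probes alone, which leaves 3 of 10 and 14 of 25 probes. Without the Cy5-activated day 3 array, 9 of the 25 restraining probes were higher at day 3, and without the other day 3 array 3, against 5. Of the 5 nearest probes, 4 for each member were the same over 5 arrays and 2 over days 3 and 10 alone. No paired analysis was possible because the labels give the arrays no shared replicate numbers; the dye term stands in its place. Signal over background is unknown, so a dim probe cannot be told from a bright one.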
